A study of Mus musculus with 9 samples.

Results

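The 10 genes described here were grouped under innate nucleic acid sensing and were followed in 9 libraries of mouse hypothalamic RNA. They comprise the Toll-like receptors Tlr2, Tlr3, Tlr7 and Tlr9, their adaptor Myd88, the cytosolic RNA sensors Ddx58 (RIG-I) and Ifih1 (MDA5), the adaptor of cytosolic DNA sensing Tmem173 (STING), the Z-form nucleic acid sensor Zbp1, and the signalling kinase Ripk2. They were chosen by name, and all 10 had a row among the 13588 entries of the table. Each library came from a different mouse. All mice were adult C57/BL6 males homozygous for a floxed Snord116 allele (Snord116tm1Uta/J), with vector injected into both sides of the mediobasal hypothalamus and tissue taken 10 weeks later. Control mice (AAV-GFP, n = 3) received an AAV7 vector with GFP behind a CMV promoter, and test mice (AAV-Cre, n = 6) an AAV7 vector with Cre behind a CAG promoter, at a higher titre. The floxed allele was therefore present in the controls too, while vector promoter, cargo and titre all differed between AAV-Cre and AAV-GFP mice and cannot be told apart. Neither vector was limited to 1 cell type by its promoter. The captured region was a piece of a single brain slice placed by the Cre staining of neighbouring sections, or the matching region in AAV-GFP mice.

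The AAV-Cre mice were split by body weight into 3 labelled obese and 3 labelled nonobese. The titles of the samples contradict these weight labels, since the 3 titles holding the word obese belong to the samples with a nonobese label. The subsets are named here by the weight label, so every direction between them rests on that label.

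Innate immune cells carry receptors that recognise foreign or misplaced nucleic acids. TLR3, TLR7 and TLR9 sit in endosomes and detect double-stranded RNA, single-stranded RNA and unmethylated CpG DNA, whereas TLR2 binds microbial lipoproteins at the cell surface, and all of these except TLR3 signal through MYD88. RIG-I and MDA5 detect RNA in the cytosol, STING acts downstream of the cytosolic DNA sensor cGAS, ZBP1 detects Z-form nucleic acids, and RIPK2 relays signals of the NOD receptors. In the brain, microglia are a main site of these receptors, and many of the genes are themselves induced by interferon.

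The deposited values, called signal, are reads per gene scaled to a library size corrected by edgeR's TMM method and expressed on the scale of CPM. Libraries held 3929672 to 5766994 reads on the listed entries, and 3 reads, taken as the floor of detection, corresponded to a signal of 0.525 to 0.786. The floor covers counting error only. Cre signal was 0 to 0.957 in the 3 AAV-GFP libraries and 235 to 8557 in the 6 AAV-Cre libraries, and Gfp signal was 62.7 to 79 against 0, so vector transcripts matched the treatment label of every library. Snord116 itself was not analysed here. Neuronal markers were present in all libraries, with a summed signal of 2093 to 2750 over 8 genes. Obese replicates 1 and 3 stood apart from the other 7 libraries by high immune transcripts, and both had 0 reads of Agrp and Nr5a1, markers of the arcuate and ventromedial nuclei. Nr5a1 was also at 0 in AAV-GFP replicate 3 and nonobese replicate 3. Other arcuate markers were read in both obese replicates 1 and 3, with Ghrh at 27 and 2.32, Npy at 44.3 and 18.35 and Pomc at 36 and 4.65. In AAV-GFP mice Ghrh was 1.55 to 17.2, Npy 21.75 to 84.8 and Pomc 8.16 to 100.5.

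The start regions of 3 of the genes are shown because each holds the letters of an interferon-stimulated response element (ISRE), searched as GAAA, any 2 bases and GAAA on both strands. The promoter sequences are those of RefSeq on GRCm38.p6, from 250 bases before to 50 bases after a gene's start, and were found for 6 of the 10 genes. The ISRE letters, in capitals, were in 3 of these 6 and in 3.44% of all 32851 promoters of the same length. All 3 genes lie on the minus strand, and the sequences read 5′ to 3′ along the gene. For Ifih1 the stretch is the last part of the window, chr2:62646206-62646235, and for Ddx58 and Myd88 it is the region before the start, with a few bases after it for Ddx58, chr4:40239814-40240075 and chr9:119340019-119340268. The Myd88 window lies inside the gene span given below from GENCODE M21, as the RefSeq start used here differs from the GENCODE limit. The same holds for Tlr3.
Ifih1: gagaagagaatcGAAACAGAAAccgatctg
Ddx58: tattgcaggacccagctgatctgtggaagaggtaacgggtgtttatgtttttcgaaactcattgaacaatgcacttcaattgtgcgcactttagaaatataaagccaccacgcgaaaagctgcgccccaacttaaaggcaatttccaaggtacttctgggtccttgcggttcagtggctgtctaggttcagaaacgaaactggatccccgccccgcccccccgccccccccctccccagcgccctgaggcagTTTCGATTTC
Myd88: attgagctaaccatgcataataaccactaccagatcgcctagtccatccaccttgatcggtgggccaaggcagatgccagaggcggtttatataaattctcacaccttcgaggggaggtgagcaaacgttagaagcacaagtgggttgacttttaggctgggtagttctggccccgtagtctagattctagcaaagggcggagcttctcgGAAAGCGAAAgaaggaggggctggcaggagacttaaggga

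In Ifih1 the match began 33 bases after the start, in Ddx58 3 bases after it (read on the opposite strand), and in Myd88 its nearest base was 31 bases before it. The letters of an NF-kappaB element (GGGA, any 2 bases, TTCC, on both strands) were in the Tlr3 window alone and in 1.47% of all promoters. Neither motif was found in the Tlr2 and Tlr9 windows.

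In AAV-GFP mice the 10 genes were expressed at low levels. Per kilobase of exon, mean signal was highest for Ripk2 at 3.8 ± 2.89 (SD, n = 3), followed by Ddx58 at 2.17 ± 0.944. Myd88, Ifih1, Tmem173 and Tlr3 followed with 0.886 to 1.16 per kilobase. The lowest were Tlr2, Tlr9, Zbp1 and Tlr7 with 0.0985 to 0.492, and neighbours in this order differed by less than the larger of their SDs, except Ddx58 and Myd88. In the mice labelled obese the order was led by Zbp1, at 15.9 ± 15.5 per kilobase, with Ddx58 at 8.53 ± 4.54, and in those labelled nonobese by Ddx58, at 1.65 ± 0.612. Zbp1 passed from next to the lowest in AAV-GFP mice to the highest in the mice labelled obese, with an SD close to its mean.

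**Figure D1:**
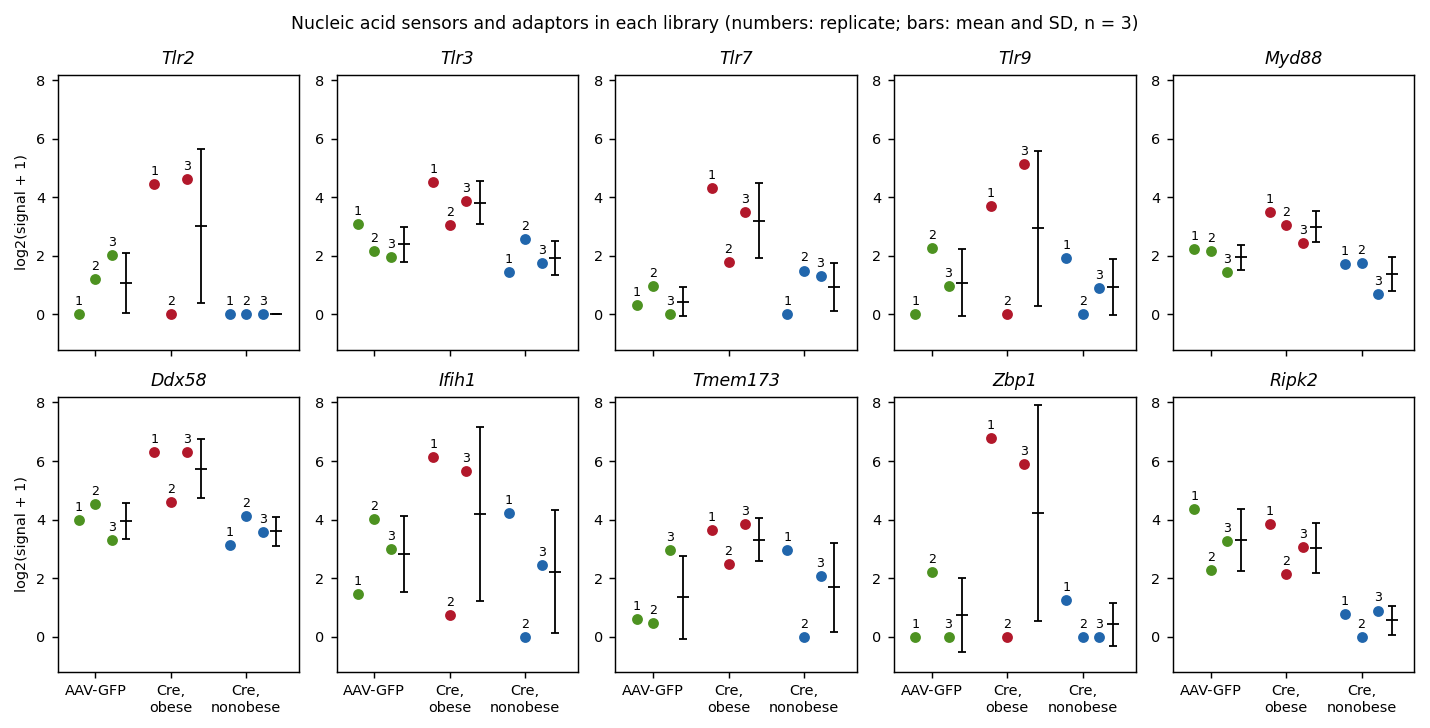
Signal of the 10 genes (vertical axes, log2(signal + 1)) in each of the 9 libraries, in the groups AAV-GFP, AAV-Cre labelled obese and AAV-Cre labelled nonobese, with digits giving the replicate number. For 8 of the 10 genes, obese replicates 1 and 3 are above all other 7 libraries, the exceptions being Myd88 and Ripk2.

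Differences were tested on log2(signal + 1) with limma, and Benjamini-Hochberg adjusted values over 13506 entries are given as FDR, with a call at an FDR under 0.1. This scale understates the log2 fold change (log2 FC) of genes of low signal. All 10 genes passed the filter on low values, for which 3 or more libraries had to reach a signal of 1. Tlr2, Tlr7, Tlr9 and Zbp1 reached that signal in only 2 of the 6 libraries that were not labelled obese, so they entered the test through the group where they were high. With 3 mice a group, the smallest p of an exact 2-sided permutation test is 0.1. Both AAV-Cre subsets were compared with the same 3 AAV-GFP mice. In bulk RNA, fewer cells of a type and less RNA per cell cannot be told apart.

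The clearest difference among the RNA sensors was in Ddx58, which encodes the helicase RIG-I and lies at chr4:40203773-40239828. Its signal was 14.7, 22.2 and 8.93 in AAV-GFP mice, 78.5, 23.1 and 78.8 in the mice labelled obese, and 7.7, 16.2 and 10.9 in those labelled nonobese. The lowest of the mice labelled obese was only just above the highest AAV-GFP mouse, and the others were several times higher, so the groups did not overlap. The log2 FC was 1.8 (SE 0.5) in the mice labelled obese against AAV-GFP, with an FDR of 0.155 by limma, and it did not pass the threshold. Between the AAV-Cre subsets it was lower by 2.14 (SE 0.5) in the mice labelled nonobese, with an FDR of 0.0503, and the groups did not overlap. This was the only call among the 10 genes by limma as described, and the counts by other tools are given with each comparison.

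Ifih1 encodes MDA5, which detects long double-stranded RNA, and lies at chr2:62595798-62646255. Its signal was 1.75, 15.1 and 6.99 in AAV-GFP mice, 69.5, 0.681 and 49.3 in the mice labelled obese, and 17.5, 0 and 4.48 in those labelled nonobese. Obese replicate 2 held 3 reads, fewer than any AAV-GFP library, so the mice labelled obese spanned both the highest and almost the lowest values. Against AAV-GFP its log2 FC was 1.36 (SE 1.1, limma FDR = 0.728) and the subsets differed by −1.96 (SE 1.1, FDR = 0.512).

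Among the endosomal receptors, Tlr7 was at or under 5 reads in each AAV-GFP mouse. It lies on chromosome X at 167304929-167330558. Its signal was 0.249, 0.957 and 0 in AAV-GFP mice, 19.1, 2.5 and 10.2 in the mice labelled obese, and 0, 1.83 and 1.49 in those labelled nonobese. All 3 mice labelled obese were above every other library. The log2 FC was 2.78 (SE 0.95) in the mice labelled obese against AAV-GFP, with an FDR of 0.275 by limma, and −2.27 (SE 0.95) in the nonobese against the obese label, with an FDR of 0.349.

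Tlr3, at chr8:45395665-45411080, was read at 15 or more reads in each AAV-GFP library. Its signal was 7.48, 3.45 and 2.91 in AAV-GFP mice, 21.8, 7.26 and 13.7 in the mice labelled obese, and 1.75, 4.98 and 2.35 in those labelled nonobese. The mice labelled obese overlapped AAV-GFP only through replicate 2 and lay above all mice labelled nonobese. Tlr3 had a log2 FC of 1.41 (SE 0.73) against AAV-GFP (limma, FDR = 0.537) and −1.89 (SE 0.73) between the subsets (FDR = 0.302).

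Tlr9, at chr9:106222598-106226883, showed 0 reads in 3 of the 9 libraries. Its signal was 0, 3.83 and 0.971 in AAV-GFP mice, 12.2, 0 and 34.1 in the mice labelled obese, and 2.8, 0 and 0.854 in those labelled nonobese. Obese replicates 1 and 3 were the 2 highest libraries and obese replicate 2 was at 0. Tlr9 had a log2 FC of 1.87 (SE 1.11) against AAV-GFP (limma, FDR = 0.605) and the subsets differed by −2.01 (SE 1.11, FDR = 0.506).

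The surface receptor gene Tlr2, at chr3:83836272-83841767, split the mice labelled obese in the same way. Its signal was 0, 1.34 and 3.11 in AAV-GFP mice, 20.9, 0 and 23.7 in the mice labelled obese, and 0 in all 3 mice labelled nonobese. The log2 FC was 1.94 (SE 1.11) in the mice labelled obese against AAV-GFP (limma, FDR = 0.584) and −3.03 (SE 1.11) between the subsets (FDR = 0.269). With 0 reads in the 3 mice labelled nonobese, these fitted values depend on the pseudocount and are no bound on the fold.

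Myd88, the adaptor that TLR2, TLR7 and TLR9 share, lies at chr9:119335934-119341411. Its signal was 3.74, 3.45 and 1.75 in AAV-GFP mice, 10.4, 7.26 and 4.41 in the mice labelled obese, and 2.27, 2.36 and 0.64 in those labelled nonobese. The mice labelled obese were above both other groups without overlap, and here the third replicate was the lowest of the 3. Against AAV-GFP, Myd88 differed by a log2 FC of 1.04 (SE 0.8, limma FDR = 0.711), and the subsets by −1.61 (SE 0.8, FDR = 0.457). Myd88 overlaps Acaa1a on the opposite strand, and the strand setting of the read counting is not given in the sources used here, so its reads are uncertain.

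Zbp1 showed the widest spread of signal within a group. The gene lies at chr2:173206612-173218923 and its protein can start necroptosis. Its signal was 0, 3.64 and 0 in AAV-GFP mice, 109.3, 0 and 59.2 in the mice labelled obese, and 1.4, 0 and 0 in those labelled nonobese. Obese replicates 1 and 3 held 486 and 255 reads, and the other 7 libraries 27 reads together. Zbp1 had the largest log2 FC of the 10 genes, 3.5 (SE 1.24) against AAV-GFP (limma, FDR = 0.308) and −3.81 (SE 1.24) between the subsets (FDR = 0.207).

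Tmem173 encodes STING and lies at chr18:35733679-35740554. Its signal was 0.499, 0.383 and 6.8 in AAV-GFP mice, 11.5, 4.54 and 13.2 in the mice labelled obese, and 6.82, 0 and 3.2 in those labelled nonobese. Obese replicates 1 and 3 were the 2 highest libraries, but AAV-GFP replicate 3 was above obese replicate 2. Its log2 FC was 1.98 (SE 0.93) against AAV-GFP (limma, FDR = 0.486) and −1.63 (SE 0.93) between the subsets (FDR = 0.521).

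Ripk2 was the gene that departed from this pattern. It lies at chr4:16122733-16163647 and its product passes NOD1 and NOD2 signals to NF-kappaB. Its signal was 19.7, 3.83 and 8.55 in AAV-GFP mice, 13.5, 3.4 and 7.43 in the mice labelled obese, and 0.7, 0 and 0.854 in those labelled nonobese. The mice labelled obese overlapped AAV-GFP, whereas each of the mice labelled nonobese, with 4 reads or fewer, lay below all 6 other libraries. The log2 FC was −0.27 (SE 0.82) in the mice labelled obese against AAV-GFP (limma, FDR = 0.943). In the mice labelled nonobese it was −2.75 (SE 0.82) against AAV-GFP, with an unadjusted p of 0.0026 and an FDR of 0.999 by limma, and the exact permutation p was 0.1, the smallest that 3 against 3 allows. Against the mice labelled obese it was −2.47 (SE 0.82, FDR = 0.211).

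**Figure D2:**
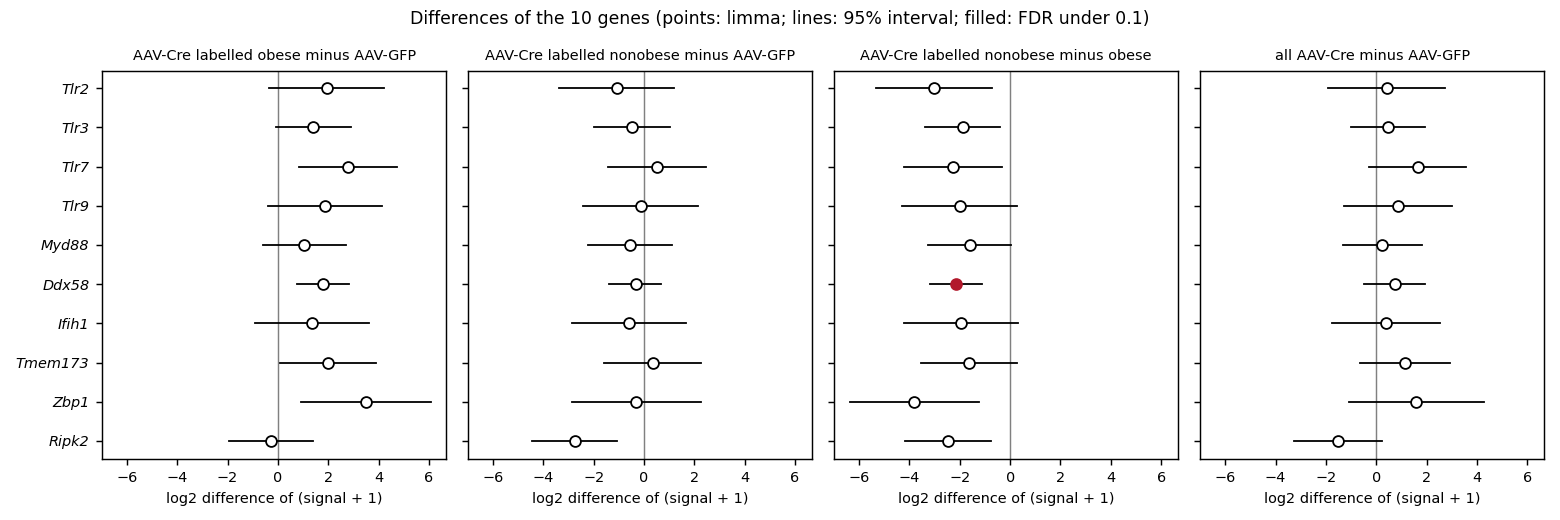
Log2 FC of each gene on the log2(signal + 1) scale (horizontal axis) with its 95% confidence interval from limma, in the 4 comparisons, with a filled point for an FDR under 0.1 (Ddx58 between the subsets). In the mice labelled obese against AAV-GFP, the intervals of Tlr7, Ddx58, Tmem173 and Zbp1 lie above 0, and over all AAV-Cre mice each interval includes 0.

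Counted over the 10 genes, 0 of 10 had an FDR under 0.1 in the mice labelled obese against AAV-GFP by limma, where 0.555% of all entries did. At an unadjusted p under 0.05, 4 genes were higher (Tlr7, Ddx58, Tmem173 and Zbp1), with 5.11% of all entries higher at that level. The groups did not overlap for 3 genes, all higher, against 7.18% of entries. The log2 FC was above 0 for 9 of 10, against 47% of entries, with a median of 1.83 for the genes and −0.04 for all entries. Tlr2, Tlr7, Tlr9 and Zbp1 had entered the test through the mice labelled obese. The counts of 4, 3 and 9 and the median are therefore a description only. EdgeR's quasi-likelihood test on the recovered reads called 0 of the 10 genes, its likelihood ratio test 3 and DESeq2 2. Over all entries these called 93, 260 and 275, against 75 by limma. Without obese replicate 2, 6 of 10 passed (Tlr2, Tlr7, Tlr9, Ddx58, Ifih1 and Zbp1), with FDRs of 0.000301 to 0.0478. Leaving out any of the other libraries compared gave 0. The share of all entries passing without obese replicate 2 was not counted, so the 6 are a description only. Of these 6, Ddx58 and Ifih1 were the genes that did not need the mice labelled obese to pass the filter on low values. With obese replicates 1 and 3 both left out, a setting chosen after seeing the data, 0 passed, and the differences of Tlr2, Tlr9, Ifih1 and Zbp1 turned to −1.09, −1.08, −2.07 and −0.74, while that of Ddx58 was 0.65.

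Against AAV-GFP, the mice labelled nonobese also had 0 of 10 genes with an FDR under 0.1 by limma, with 0.0148% of all entries called, and edgeR and DESeq2 called 0 as well. Ripk2 alone had an unadjusted p under 0.05, where 1.23% of entries were lower at that level, and was the 1 gene without overlap, lower, against 5.15% of entries. The log2 FCs of the other 9 genes ran from −1.09 to 0.51. The median of the 10 was −0.41 and that of all entries −0.02.

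Between the subsets, Ddx58 alone of the 10 genes passed, with 0.948% of all entries called in either direction and 0.733% called lower in the nonobese label. At an unadjusted p under 0.05, 6 genes were lower in the mice labelled nonobese, against 6.26% of entries. For 5 (Tlr3, Tlr7, Myd88, Ddx58 and Ripk2) the subsets did not overlap, against 6.65% of entries lower without overlap. Some of the 10 genes had entered the test through the mice labelled obese, so the counts of 6 and 5 are a description only. The quasi-likelihood test called 2, the likelihood ratio test 4 and DESeq2 2. Over all entries these called 141, 398 and 389, against 128 by limma. Without obese replicate 2, 7 of 10 passed by limma, of which Tlr2, Tlr7, Tlr9 and Zbp1 had entered the test through the mice labelled obese. The share of all entries passing in this setting was not counted, so the 7 are a description only. Without obese replicate 1 or 3, or nonobese replicate 1 or 3, none passed, and the FDR of Ddx58 was then 0.144 to 0.301. Without both obese replicates 1 and 3, Ddx58 differed by −0.99 (FDR = 0.62).

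As a single group, all 6 AAV-Cre mice were compared with the 3 AAV-GFP mice. None of the 10 genes was called by limma (0.0222% of all entries were), 0 had an unadjusted p under 0.05 (3.14% of entries), and 0 were without overlap, against 2.01% of entries. On the recovered reads, edgeR and DESeq2 called 0, with 2 genes at an unadjusted p under 0.05 by each. The largest differences were Tlr7 at 1.64, above all AAV-GFP mice in 5 of 6 AAV-Cre mice, and Ripk2 at −1.51, below all AAV-GFP mice in 4 of 6, both with an FDR of 0.999. Without obese replicates 1 and 3 these were 0.73 and −2.35, and the differences of 7 of the other 8 genes were below 0.

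Several of these genes encode receptors that detect nucleic acids, so the signal of the 10 genes was set beside that of the vector transcript. Cre signal was 1330, 8557 and 235 in obese replicates 1 to 3 and 4644, 5136 and 7064 in the nonobese replicates. The 2 libraries of lowest Cre signal, obese replicates 3 and 1, were thus the libraries in which most of these genes were highest. In both of them, 9 of 10 genes were above the other 4 AAV-Cre libraries, Myd88 being the exception, against 12.5% of 13504 entries. Of these 9, Tlr2, Tlr7, Tlr9 and Zbp1 had entered the table of tested genes through the mice labelled obese, so the count is a description only. Against all other 7 libraries the count was 8 of 10, also without Ripk2, and 9.35% of entries, and it is a description only too. Since the AAV-Cre libraries fell into separate clusters in the values of these genes, no correlation with Cre was calculated.

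The library with the least Cre transcript (obese replicate 3) was above the library with the most (obese replicate 2) for 9 of 10 genes, against 51.3% of entries. Most of these genes were already known to be high in obese replicate 3. The 9 of 10 was thus largely set in advance and is a description only. Within the nonobese label, 5 of 10 genes were higher in the library of lowest Cre signal (replicate 1) than in that of highest (replicate 3), with 1 equal and 50.1% of entries. Without the 2 libraries farthest from the median Cre signal on the log2 scale (obese replicates 1 and 3) the count was 4 of 10, with 1 equal and 51.2% of entries. On the linear scale the farthest were obese replicates 2 and 3, and without them, a setting chosen after seeing the data, it was 10 of 10 against 48.9% of entries. Obese replicate 1 then had the lowest Cre signal, and most of these genes were already known to be high in it. The 10 of 10 was thus largely set in advance and is a description only. The AAV-Cre library with the most Cre transcript, obese replicate 2, had a summed signal of 48.8 over the 10 genes, within the 40.01 to 58.2 of AAV-GFP mice. The corresponding sums were 367 and 294 in obese replicates 1 and 3 and 24.7 to 41 in the mice labelled nonobese.

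**Figure D3:**
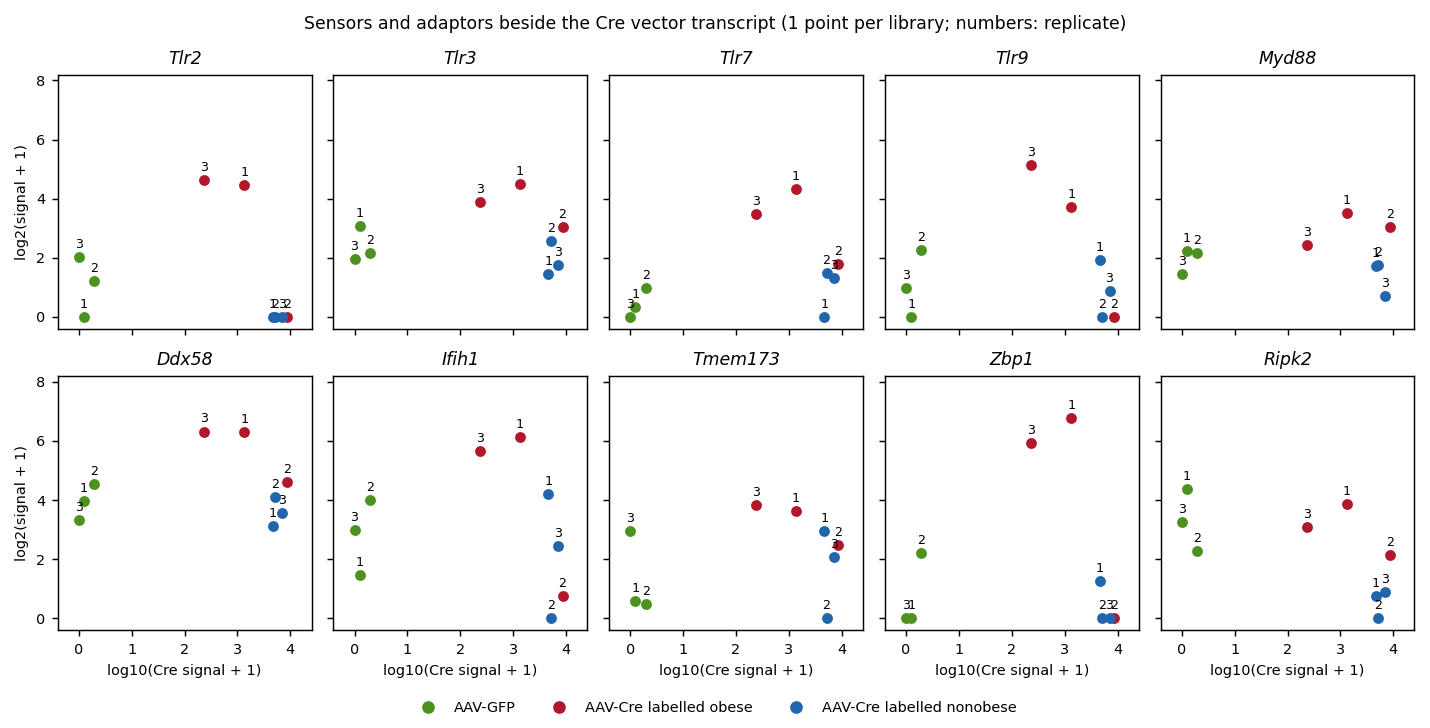
Signal of the 10 genes against Cre signal, both on log axes after adding 1, in the 6 AAV-Cre and 3 AAV-GFP libraries, with digits giving the replicate number. Obese replicates 3 and 1, at a Cre signal of 235 and 1330, hold the highest values of most genes, and the 4 libraries from 4644 to 8557 lie lower.

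Around these 10 genes, 7 lists of other sensing genes were counted, of which 103 of 130 genes had a row and 102 were tested. In the mice labelled obese against AAV-GFP, 4 of the 102 rose and 0 fell, where 0.422% of all entries rose. They were Irf7 and Irf1, transcription factors that act downstream of the sensors or of interferon, Oasl2, an interferon-induced member of the oligoadenylate synthetase family, and Nlrc5, a regulator of MHC class I genes. At an unadjusted p under 0.05, 28 were higher and 1 lower, against 5.11% and 4.78% of entries. The median log2 FC of the 102 was 0.62, lower than that of the 10 genes. Some of the 28, such as Ifi204, Mndal, Cxcl10 and Oasl1, reached a signal of 1 in fewer than 3 libraries not labelled obese. These genes entered the test through the group where they were high, so the count of 28 and the median are a description only.

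Irf7 signal was 3.24, 8.04 and 5.24 in AAV-GFP mice, 73.6, 22.7 and 66.4 in the mice labelled obese and 4.38, 3.67 and 0.427 in those labelled nonobese, with no overlap of the mice labelled obese with either group. Its log2 FC was 2.99 (SE 0.68, limma FDR = 0.0559) against AAV-GFP. Irf1 had a log2 FC of 3.1 (FDR = 0.0563). Nlrc5 had a log2 FC of 3.7 (FDR = 0.0687) and Oasl2 of 3.08 (FDR = 0.0716). The 4 calls became 35 without obese replicate 2 and 1 without AAV-GFP replicate 2. They became 0 without AAV-GFP replicate 1 or 3, or without obese replicate 1 or 3. Shares of all entries were not counted in these settings, so the 35 is a description only.

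By list, the receptors and accessory proteins of the Toll-like family had 0 of 17 calls, with the lowest FDR for the lysosomal protease Ctsb (log2 FC 0.83, FDR = 0.171). The RIG-I-like pathway had 0 of 15, led by the helicase Ddx60 (2.74, FDR = 0.248), and cytosolic DNA sensing 0 of 16, led by Ifi204 (3.58, FDR = 0.169). The NOD list had 1 of 12, the downstream kinases and transcription factors 2 of 22, and nucleic acid editing and degradation 1 of 17. The induced cytokines had 0 of 3, with Cxcl10, a chemokine that draws T cells, at 64.6, 0 and 46.2 in the mice labelled obese and 0, 2.87 and 0 in AAV-GFP mice (log2 FC 3.21, FDR = 0.344).

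Between the subsets, 7 of the 102 genes fell in the nonobese label and 0 rose, where 0.733% of all entries fell. Besides Nlrc5 (−5.08, limma FDR = 0.00683), Oasl2 (−4.52, FDR = 0.00668), Irf7 (−3.9, FDR = 0.00683) and Irf1 (−3.57, FDR = 0.0161) these were Zc3hav1, Nfkb1 and Erbin. Zc3hav1, an antiviral RNA-binding protein, differed by −2.38 (FDR = 0.0688), Nfkb1, a subunit of NF-kappaB, by −1.63 (FDR = 0.049) and Erbin, a scaffold protein, by −0.87 (FDR = 0.0684). Lists without a call were the Toll-like receptors, led by the kinase Irak4 (−3.04, FDR = 0.106), DNA sensing, led by Ifi204 (−3.4, FDR = 0.148), and the cytokines, led by Ccl5 (−3.67, FDR = 0.138). The count was 42 without obese replicate 2, 4 without nonobese replicate 3, and 0 without obese replicate 1 or 3. Shares of all entries were not counted in these settings either, so the 42 is a description only.

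Against AAV-GFP, 0 of the 102 passed by limma in the mice labelled nonobese, with 3 at an unadjusted p under 0.05 (2.27% of entries), namely Zc3hav1 (−1.4), Nfkb1 (−1.19) and the inflammasome adaptor Pycard (1.79). Over all 6 AAV-Cre mice 0 passed, and 3 were at that level, all higher (1.81% of entries). Among them Dhx58, the third RIG-I-like receptor, had a log2 FC of 1.88 (SE 0.71) and an FDR of 0.999 by limma. It lay above AAV-GFP in 6 of 6 mice, with an exact permutation p of 0.0119, the smallest that 6 against 3 allows. Dhx58 was the 1 gene of the 102 without overlap, against 2.01% of all entries in either direction, so this is a description only.

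Many markers of immune cells moved with the same libraries, and their part in the differences above was not tested. Summed microglial signal (9 of 10 markers with a row) was 138 to 165 in AAV-GFP mice, 490, 173 and 371 in the mice labelled obese and 110.5 to 165 in those labelled nonobese. Within that list Cx3cr1 was 101, 18.8 and 96.7 in the mice labelled obese against 22.9 to 25.9 in AAV-GFP mice, whereas P2ry12 was 9, 18.8 and 7.2 against 8.43 to 20.7. Siglech went the other way in obese replicates 1 and 3, at 5.625, 54.2 and 2.56 against 7.28 to 19.2. The log2 FC of the mice labelled obese against AAV-GFP was above 0 for 6 of the 9 microglial markers. Monocyte and macrophage signal (6 of 8) was 4.47 to 22.9 in AAV-GFP mice, 209, 24.3 and 306 in the mice labelled obese and 4.27 to 29.1 in those labelled nonobese. Ly6c2, Cd8b1 and Cd79a, markers of monocytes, cytotoxic T cells and B cells, were at 0 in all libraries but obese replicates 1 and 3. Cd163, a macrophage marker of the same list as Ly6c2, went the other way, at 0 in the 3 mice labelled obese, 9.22, 3.25 and 0 in AAV-GFP mice and 5.6, 7.07 and 0 in those labelled nonobese.

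T and NK cell signal (5 of 11) was 2.99 to 4.79 in AAV-GFP mice, 91.1, 5.67 and 63.2 in the mice labelled obese and 0.854 to 2.88 in those labelled nonobese. The 5 genes were Cd3e, Cd3d, Cd3g, Cd8a and Cd8b1, while Nkg7, Klrd1, Gzmb and Ncr1 had no row, so NK cells were not covered. B and plasma cell signal (5 of 8) was 0.383 to 1.5, then 2618, 65.4 and 4880, and 19.6 to 38.6, and so was above AAV-GFP in all 6 AAV-Cre mice. Outside obese replicates 1 and 3 this sum was mostly immunoglobulin kappa and J chain transcript. Igkc was 52.2 in obese replicate 2 and 18.6 to 30.5 in the mice labelled nonobese, and Jchain 13.2 and 1.05 to 7.04. The other markers Cd79a and Mzb1 were at 0 in these AAV-Cre libraries, and Iglc2 at 0 except 1.07 in nonobese replicate 3. The dendritic cell signal (2 of 6) was 5.75 to 12.2 in AAV-GFP mice, 15.7 to 25.6 in the mice labelled obese and 9.43 to 19.4 in those labelled nonobese. Its 2 genes differed, with Itgax at 0 to 0.383 in AAV-GFP mice and 4.77 to 17.9 in the mice labelled obese. Flt3 was 5.36 to 12.2 and 5.63 to 10.9 in the same groups. In obese replicates 1 and 3 the mean log2 level of a list, relative to AAV-GFP, was 1 and 1.3 for astrocytes and 0.4 and 0.2 for endothelial cells. It was −0.2 and −0.3 for neurons, −0.1 and −0.4 for oligodendrocytes, and −0.7 and 0.6 for red blood cells. For the mediobasal hypothalamus it was −0.9 and −1.9, beside −1.5 in AAV-GFP replicate 3 and −1.1 in nonobese replicate 3.

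**Figure D4:**
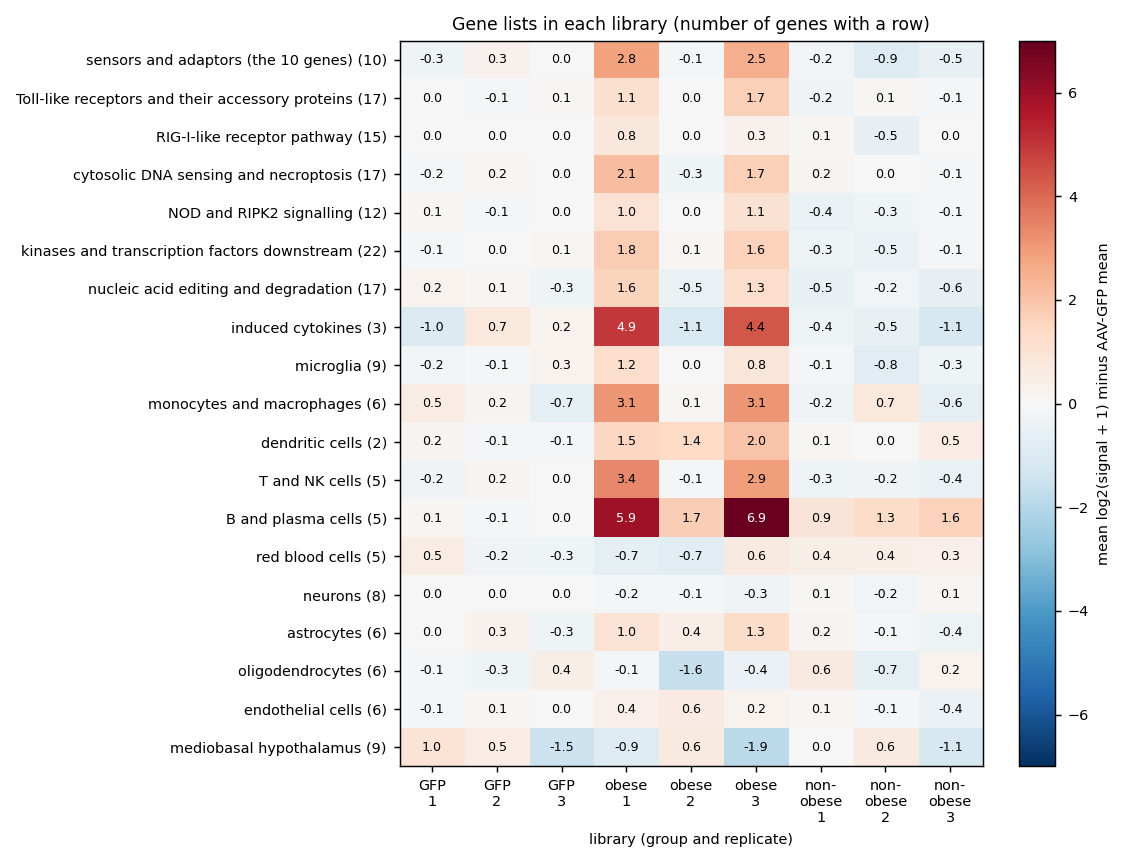
Mean log2(signal + 1) of each gene list in each library, minus its mean over the 3 AAV-GFP libraries (colour and number), with the number of genes with a row in brackets. The 10 sensing genes stand at 2.8 and 2.5 in obese replicates 1 and 3, and the lists of B and plasma cells at 5.9 and 6.9.

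The mean z-score of the 10 genes was 1.5 and 1.25 in obese replicates 1 and 3 and −0.76 to −0.11 in the other libraries. Pearson's r of log2(signal + 1), used only as a measure of likeness, was above 0 for all 45 pairs, with a median of 0.641. Obese replicates 1 and 3, which stood apart, are 2 of the 9 points, so r cannot be told apart from this split. Tlr2, Tlr7, Tlr9 and Zbp1 had entered the test through the mice labelled obese, and r of pairs of other genes was not calculated. The closest pair was Ddx58 and Tlr7 at 0.939, then Tlr9 and Zbp1 at 0.928, Ifih1 and Tlr9 at 0.923, Tlr3 and Ddx58 at 0.914, and Tlr2 and Zbp1 at 0.911. Myd88 was most like Tlr3 at 0.826, and Tmem173 (Ifih1, 0.685) and Ripk2 (Tlr3, 0.603) had the weakest best match.

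Outside these genes, the 5 most like their mean z-score over the 9 libraries were Cd74 and Igtp (each 0.983), H2-Q4 (0.982), H2-Ab1 (0.981) and Smim3 (0.978). Cd74 and H2-Ab1 belong to MHC class II antigen presentation, H2-Q4 is an MHC class I gene and Igtp an interferon-inducible GTPase. Cd74 signal was 2.49, 4.79 and 2.72 in AAV-GFP mice, 1076, 9.53 and 1186 in the mice labelled obese, and 4.2, 1.31 and 1.92 in those labelled nonobese. As with Zbp1, obese replicates 1 and 3 stood far above the rest, and obese replicate 2 lay near the other libraries.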

How the data were processed

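RNA of a captured hypothalamic region of 9 mice was sequenced, with 1 library per mouse. The deposited signal was made by the authors from reads mapped to GRCm38 with TopHat2 2.0.11, with HTSeq, edgeR and limma named in the submitters' processing notes, as TMM-scaled CPM. Each value divided by what 1 read is worth gave a whole number (100% of values within 0.02 reads), so reads were recovered. The test had been planned for CPM, and the same test was kept for signal. Differences in log2(signal + 1) were fitted by limma 3.58.1 under R 4.3.3, with a variance trend, over the 13506 entries that reached a signal of 1 in 3 or more libraries, with the 3 groups in a fit, or 6 AAV-Cre against 3 AAV-GFP mice. Alternatives on recovered reads used edgeR 4.0.16 and DESeq2 1.42.0. Others were pseudocounts of 0.1 and 5, other filters, median centring, no trend, a replicate block, an FDR of 0.05, only the groups compared, and leaving out each library. Scripts were tested on simulated data. Positions come from GENCODE M21, promoters from RefSeq. Beside the 10 genes, those named are up to 4 per pathway list with the largest change among calls, otherwise that of lowest FDR, and the most alike genes. The genes and lists were chosen with earlier results of these data known. An item that had been on a list is not reported here and was left out of its counts.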

Additional observations from a re-analysis of the deposited data

Results flagged for a closer look

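In 8 of the 112 sensing genes tested the AAV-Cre subsets differed by the direct test between them (limma, FDR under 0.1), all lower in the mice labelled nonobese, where 0.733% of all entries were called lower. On the log2 scale the difference was −2.14 for Ddx58, −2.38 for Zc3hav1, −5.08 for Nlrc5, −0.87 for Erbin, −3.57 for Irf1, −3.9 for Irf7, −1.63 for Nfkb1 and −4.52 for Oasl2.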

How the results depend on the processing

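For the mice labelled obese against AAV-GFP, the count of the 10 genes called was 0, and it became 1 with a pseudocount of 5, 3 by edgeR's likelihood ratio test and 2 by DESeq2, and ran from 0 to 6 with each library left out. The count of other sensing genes was 4, and it became 0 with a pseudocount of 0.1, no variance trend or an FDR of 0.05, 17 by the likelihood ratio test and 12 by DESeq2, and ran from 0 to 35 with each library left out. Between the subsets, the count of the 10 genes was 1, and it became 2 with a pseudocount of 5, by the quasi-likelihood test and by DESeq2, 4 by the likelihood ratio test, and 0 without a trend or at an FDR of 0.05, with 0 to 7 on leaving out a library. The count of other sensing genes was 7, and it became 17 with a pseudocount of 5, 0 without a trend, 12 by the quasi-likelihood test, 25 by the likelihood ratio test, 23 by DESeq2 and 4 with only those groups fitted, with 0 to 42 on leaving out a library. The FDR of Ddx58 between the subsets was 0.244 without a trend. The share of all entries called was not counted with a library left out, so those counts are a description only. The cause of these changes was not tested. The other comparisons gave 0 under the alternatives run. The count set beside Cre, 9, was 4 without the 2 libraries farthest from the median on the log2 scale (obese replicates 1 and 3), 10 without the 2 farthest on the linear scale (obese replicates 2 and 3, chosen after seeing the data) and 5 within the nonobese label. The 9 rests on obese replicate 3 and the 10 on obese replicate 1, and most of these genes were already known to be high in both.

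For all AAV-Cre against AAV-GFP, a pseudocount of 0.1 turned Tlr2 to −0.35 and Ifih1 to −0.15. Leaving out single libraries turned the sign of Tlr2 (−0.2 to 0.9), Myd88 (−0.02 to 0.54) and Ifih1 (−0.3 to 1.02) there, of Ripk2 in the mice labelled obese against AAV-GFP (−0.79 to 0.26), and in those labelled nonobese of Tlr9 (−0.69 to 0.45), Ifih1 (−1.6 to 0.51), Tmem173 (−0.3 to 1.18) and Zbp1 (−0.74 to 0.42). With obese replicates 1 and 3 both left out (chosen after seeing the data, with the lone mouse labelled obese assumed to vary like the other groups), the counts of called genes in every comparison run were 0. The log2 FC against AAV-GFP in the mice labelled obese turned to −1.09 for Tlr2, −1.08 for Tlr9, −2.07 for Ifih1 and −0.74 for Zbp1, and the subset difference to 0.94 for Tlr9, 1.47 for Ifih1 and 0.42 for Zbp1. Over all AAV-Cre mice it turned to −1.09 for Tlr2, −0.19 for Tlr3, −0.38 for Tlr9, −0.15 for Myd88, −0.09 for Ddx58, −0.97 for Ifih1 and −0.42 for Zbp1.

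Libraries of the same replicate number are different mice, and their deviations correlated at −0.02 to 0.09 over 9 pairs, with 0 over 0.1 and 4 of 9 libraries best with their own number, so the numbers were not taken to pair the mice. With the replicate block the counts were 1 and 7 for the mice labelled obese against AAV-GFP (the 10 genes and the other sensing genes) and 1 and 16 between the subsets. With a floor of 3 reads, values of the genes at 0 were not distinguishable from low expression at this depth.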
